A study of Mus musculus with 4 samples.

Results

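The MSX and DLX homeobox genes were followed in nasal process (NP) tissues, the paired swellings around the nasal pits that build the midface, of E11.5 mouse embryos with or without a constitutively activated BMP receptor in cranial neural crest cells (CNCCs). The members were taken by symbol: *Msx1*, *Msx2* and *Dlx1* to *Dlx6*. Of these 8 names, 7 had a row among the 13577 genes of the expression table. *Dlx4* had no row, and no value of it was analysed here.

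RNA was profiled with QuantSeq, a 3′ mRNA sequencing method, in 4 libraries, of which 2 bear the title control and 2 the title ca-*Acvr1(A11)* mutant. According to the methods of the study, controls were ca-*Acvr1(A11)* +/+;*P0-Cre* and mutants were ca-*Acvr1(A11)* fl/+;*P0-Cre*, so that both groups carried the *P0-Cre* driver, which is active in neural crest. The floxed transgene places an activated form of the type I BMP receptor ACVR1 behind a ubiquitous CAG promoter and a lacZ cassette that Cre removes, so cells outside the neural crest, such as epithelium, were not the intended targets. The mice were on a mixed background and embryos of both sexes were combined. The labels did not say whether a library was 1 embryo or a pool, nor whether the replicates came from separate litters, so p-values measured only the spread between these libraries, which may be technical. The genotype entries of the 4 libraries go against their titles: the libraries titled control are entered with the ca-*Acvr1(A11)* allele and those titled mutant with *P0-Cre* alone. Groups here follow the titles. Should the entries for genotype be right instead, each direction below is to be read the other way round.

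MSX and DLX proteins are transcription factors that bind DNA through a homeodomain. MSX proteins act mostly as repressors, keep facial and limb mesenchyme undifferentiated, and their genes are classical targets of BMP signaling. DLX genes lie in the genome as tightly linked pairs that share enhancers, pattern the branchial arches through nested expression, and are also used in the olfactory placode and in the GABAergic lineage of the forebrain.

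The homeobox shows how closely the members are related and is therefore given first. The stretches below, read 5′ to 3′ from the GENCODE M21 transcripts, cover 42 bases toward the 3′ end of the homeobox of *Msx2* and of the DLX genes, with capitals marking the codons of the residues WFQN in the DNA-recognition helix.
*Msx2*: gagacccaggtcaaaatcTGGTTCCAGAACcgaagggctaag
*Dlx1*: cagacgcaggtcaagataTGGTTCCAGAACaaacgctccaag
*Dlx2*: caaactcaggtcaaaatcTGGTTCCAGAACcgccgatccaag
*Dlx3*: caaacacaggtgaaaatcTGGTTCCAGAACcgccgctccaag
*Dlx4*: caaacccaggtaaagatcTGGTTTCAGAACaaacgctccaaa
*Dlx5*: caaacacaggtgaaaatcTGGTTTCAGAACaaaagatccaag
*Dlx6*: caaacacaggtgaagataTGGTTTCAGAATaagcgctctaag

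Over the whole homeobox of 180 bases, nucleotide identity among the members was highest for *Msx1* and *Msx2*, at 82.2%, and lowest for *Msx2* and *Dlx4*, at 54.4%. Between *Dlx2* and *Dlx3*, which lie on different chromosomes, it was 81.7%. The linked neighbours were less alike than that, at 73.9% for *Dlx1* and *Dlx2*, 73.3% for *Dlx5* and *Dlx6* and 71.7% for *Dlx3* and *Dlx4*. QuantSeq places its reads close to transcript ends, and within the last 500 bases of the transcripts the longest stretch shared exactly by any pair of members was 18 bases.

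The 4 libraries held 1956831, 2252586, 2408827 and 2137027 reads, in the order control 1, control 2, mutant 1 and mutant 2, which is also the order of all values below. Values are in CPM, the reads of a gene scaled to a common library total, and 1 read was worth 0.415 to 0.511 CPM. A transcript gives about 1 tag in this method whatever its length, so CPM can be set side by side between genes. *Acvr1* itself was at 21.5, 23.1, 24.1 and 12.6 CPM, with overlapping groups, a log2 fold change of −0.33 (SE 0.28) and an adjusted p of 0.786 in limma. That row does not check the labels, because 3′ reads need not come from the transgene. Fold changes here are mutant minus control on the scale of log2(CPM + 1), which understates the change of low genes.

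No member passed the test between mutants and controls. Of 7 members tested with limma, 0 had an adjusted p under 0.05, where 0.899% of all 12462 tested genes did. At an unadjusted p under 0.05 there were 2 members, *Dlx6* and *Msx2*, where 9.55% of all tested genes passed. Tests on reads recovered from the CPM also called 0 members, with 2 at an unadjusted p under 0.05 in edgeR (*Dlx6* and *Msx2*) and 0 in DESeq2. The estimate was above 0 for 5 members and below 0 for 2, both MSX genes, and the median log2 fold change was 0.16 against 0.03 over all genes tested. Groups did not overlap for *Dlx3* and *Dlx6*, 2 members higher in mutants where 21.9% of tested genes were, and for *Msx2*, 1 member lower where 16.8% were. In simulated data of the same size (12236 genes), every gene had the same spread beyond counting (dispersion 0.0119). Limma there called 12.1% of genes changed by 0.5 and 51.5% of those changed by 1 on the log2 scale. Changes of this order could thus often be missed with 2 libraries per group. These shares cover genes of all levels and cannot be read as those of the members. *Msx1* and *Msx2* differed within controls by more than counting gives, and *Dlx6* had 2 to 14 reads.

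**Figure D1:**
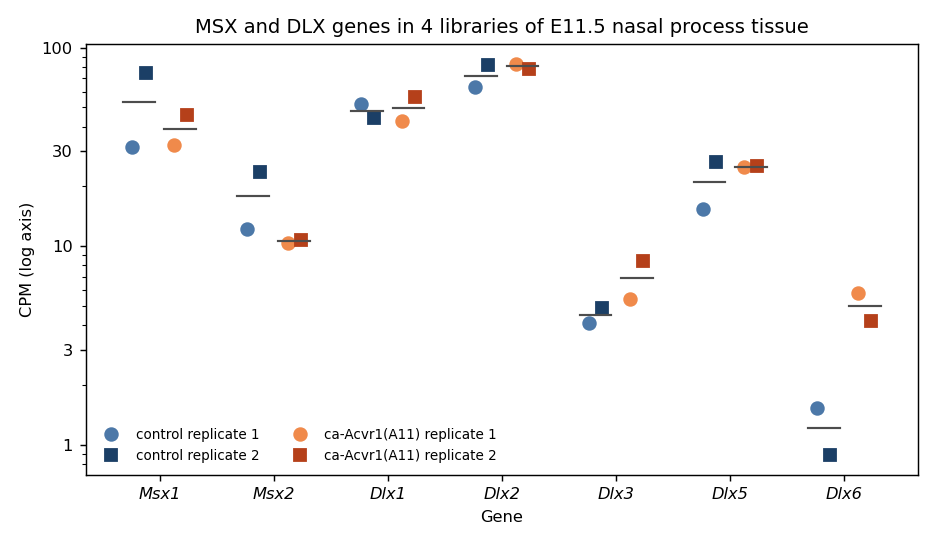
Levels of the 7 listed members in each library, in CPM on a log axis, with a point for each library and a short line for the mean of each group of 2. *Dlx2* lies highest at 63.4 to 83.0 CPM and *Dlx6* lowest at 0.888 to 5.81 CPM, and for *Msx1* and *Msx2* the second control library stands above the other 3.

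Levels spanned more than an order of magnitude. *Dlx2* led with a mean of 76.4 ± 8.95 CPM (SD, n = 4 libraries) and lay above 79.2% of listed genes. *Dlx1* (48.7 ± 6.46 CPM) and *Msx1* (46.1 ± 20.1 CPM) followed with overlapping ranges, and both lay below the whole range of *Dlx2* except for the highest *Msx1* library at 74.6 CPM. *Dlx5* (23.0 ± 5.19 CPM) and *Msx2* (14.2 ± 6.25 CPM) overlapped with each other and lay below every *Msx1* value. *Dlx3* (5.70 ± 1.89 CPM) and *Dlx6* (3.11 ± 2.30 CPM) were at the bottom, with ranges that overlapped.

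Of the MSX genes, which encode the repressors, *Msx1* lies on chromosome 5 from 37820485 to 37824583 on the minus strand (GRCm38, the build of mm10). It was at 31.7, 74.6, 32.4 and 45.9 CPM, from 62, 168, 78 and 98 reads. The second control was the highest library, the first control the lowest, and the mutants lay between them. The means were 53.1 ± 30.3 CPM in controls and 39.1 ± 9.53 CPM in mutants (SD, n = 2 each). Limma gave a log2 fold change of −0.33 (SE 0.26, 95% interval −0.87 to 0.21) and an adjusted p of 0.767. *Msx1* thus differed more within the controls than between the groups.

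*Msx2*, a paralog on chromosome 13 from 53466884 to 53473074, is known for its part in skull and suture growth. It was at 12.3, 23.5, 10.4 and 10.8 CPM, from 24, 53, 25 and 23 reads. Both mutants were below both controls, but the first control lay close to the mutants and the second stood apart. Means were 17.9 ± 7.96 and 10.6 ± 0.272 CPM, and limma gave −0.64 (SE 0.31, 95% interval −1.28 to −0.01), an unadjusted p of 0.0480 and an adjusted p of 0.515.

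The calls of both MSX genes, and the sign for *Msx1*, rested on which control was kept. Without control 1, *Msx1* was at −0.93 (adjusted p = 0.00259 in limma) and *Msx2* at −1.08 (adjusted p = 0.0496), both called lower where 1.77% of tested genes were and 3.71% were called in either direction. Without control 2, *Msx1* was at +0.28 and *Msx2* at −0.20, and neither was called, where 0.449% of tested genes were called lower and 0.939% in either direction. The controls differed by more than read counting gives: control 2 over control 1 was 2.35 for *Msx1* (exact 95% interval 1.75 to 3.20) and 1.92 for *Msx2* (1.16 to 3.25). These intervals cover counting error only, not differences between embryos or library preparations.

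**Figure D2:**
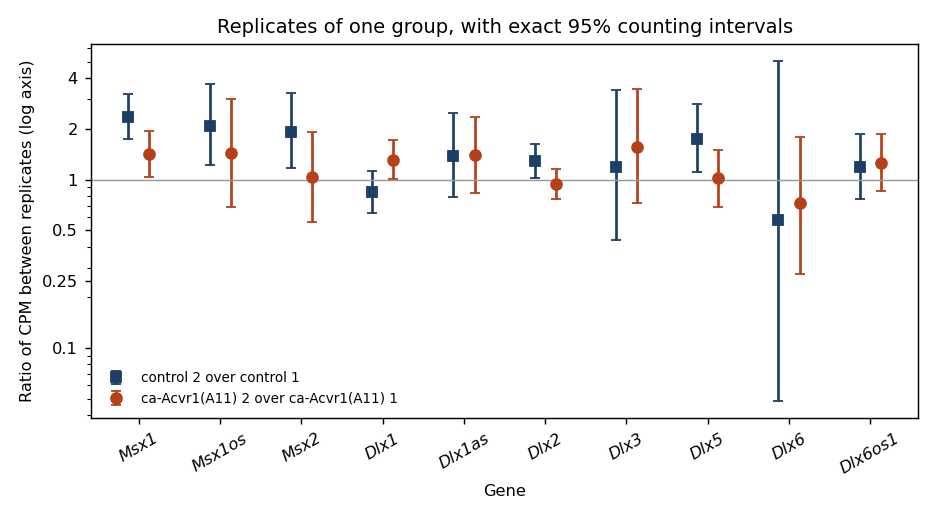
Ratio of replicate 2 to replicate 1 within each group on a log axis, with exact 95% counting intervals as bars and a line at 1. Shown are the listed members and the antisense genes *Msx1os*, *Dlx1as* and *Dlx6os1*. In controls the intervals of *Msx1*, *Msx1os*, *Msx2*, *Dlx5* and *Dlx2* lie above 1, with *Msx1* at 2.35. In mutants those of *Msx1*, at 1.42, and, by a narrow margin, of *Dlx1* lie above 1.

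Among DLX genes the same ratio was 1.74 for *Dlx5* (1.10 to 2.79), 1.28 for *Dlx2* (1.02 to 1.62) and 0.843 for *Dlx1* (0.633 to 1.12). Control 2 was the highest of the 4 libraries in 26.3% of all genes, in 7 of 8 markers of cranial neural crest mesenchyme, in 5 of 5 listed erythroid markers and in 0 of 7 markers of forebrain progenitors. The part of tissue make-up in the *Msx1* and *Msx2* values was not tested.

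Whether reads of *Msx1* were kept apart from those of its antisense gene cannot be told from what the sources state. The gene body of *Msx1os* in RefSeq spans 1137 of the 1216 bases of the last exon of *Msx1* in GENCODE. The exons of *Msx1os* were not compared, and the strand setting of the counting was not given. *Msx1os* was at 10.2, 21.3, 6.23 and 8.89 CPM, with a log2 fold change of −0.90 and an adjusted p of 0.337 in limma. Both mutants were below both controls, and the second control was again the highest. The sum of *Msx1* and *Msx1os* was 41.9, 95.9, 38.6 and 54.7 CPM, with the first control between the mutants.

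*Dlx1* and *Dlx2* carried most of the DLX signal. *Dlx1*, on chromosome 2 from 71528113 to 71533981 on the plus strand, promotes GABAergic interneuron fate and upper arch identity together with *Dlx2*. It was at 52.1, 43.9, 42.8 and 56.2 CPM, and the groups overlapped. The log2 fold change was 0.03 (SE 0.19, 95% interval −0.36 to 0.43; adjusted p = 0.980 in limma). *Dlx1as*, the antisense gene whose exons lie over 335 of the 1717 bases of the last exon of *Dlx1*, was at 11.2, 15.5, 12.04 and 16.8 CPM.

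*Dlx2* lies 9426 bases away on the opposite strand, from 71543408 to 71546754, with its 3′ end facing that of *Dlx1*. It was at 63.4, 81.2, 83.0 and 78.1 CPM. The first control was lowest and the other 3 libraries lay close together. The log2 fold change was 0.16 (SE 0.17, 95% interval −0.19 to 0.52), with an adjusted p of 0.846 in limma, and for both genes of the pair the interval leaves out a log2 change of 1 in either direction.

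The members of the other pairs were lower. *Dlx3*, an epithelial, placental and tooth-associated gene on chromosome 11 from 95120119 to 95125296, was at 4.09, 4.88, 5.40 and 8.42 CPM, from 8, 11, 13 and 18 reads. Both mutants were above both controls by small margins, and limma gave 0.50 (SE 0.38, 95% interval −0.28 to 1.29; adjusted p = 0.753). Its partner *Dlx4*, 15150 bases away, had no row. *Dlx5*, a gene of the olfactory placode, otic vesicle and lower jaw on chromosome 6 from 6877805 to 6882085, was at 15.3, 26.6, 24.9 and 25.3 CPM. Its first control was low and the other 3 libraries were alike, giving a log2 fold change of 0.30 (SE 0.26, 95% interval −0.23 to 0.83; adjusted p = 0.800 in limma).

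*Dlx6*, which acts with *Dlx5* in lower jaw identity, lies 9236 bases from it, from 6863334 to 6868568 on the plus strand. It was at 1.53, 0.888, 5.81 and 4.21 CPM, which is 3, 2, 14 and 9 reads. Both mutants stood above both controls. Limma gave a log2 fold change of 1.45 (SE 0.46, 95% interval 0.51 to 2.39), an unadjusted p of 0.00390 and an adjusted p of 0.192, the smallest p among members, which did not pass the threshold. With the reads of each group summed, 5 against 23, the ratio was 4.26 (exact 95% interval 1.58 to 14.3, counting error only). *Dlx6os1*, whose gene body overlaps *Dlx6* but whose exons cover 0 bases of its last exon, was at 19.4, 23.1, 21.6 and 27.1 CPM, several times the level of *Dlx6* in each library, with a log2 fold change of 0.19 and an adjusted p of 0.882 in limma.

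**Figure D3:**
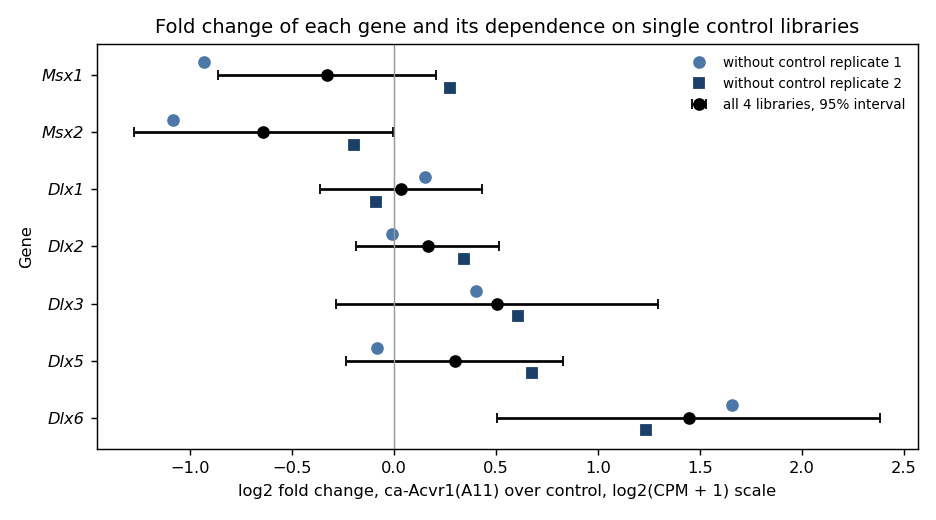
Log2 fold change of each listed member, mutant minus control on the log2(CPM + 1) scale, with bars for the 95% interval of the limma fit and further marks for the same value without control 1 and without control 2. *Msx1* moves from −0.93 to +0.28 between these settings, whereas *Dlx6* is on the positive side in all of them.

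The linked pairs were compared within each library, as the log2 ratio of CPM + 1. The log2 ratio of *Dlx1* to *Dlx2* was −0.28, −0.87, −0.94 and −0.47, and the groups overlapped. The group difference was −0.13, with a two-sided exact permutation p of 0.667. For *Dlx5* to *Dlx6* the log2 ratio was 2.69, 3.87, 1.93 and 2.33, with both mutants below both controls. The difference was −1.15, or −1.68 with a pseudocount of 0.1 in place of 1, since the added constant weighs on the low *Dlx6* values, and the exact permutation p was 0.333, the smallest that 2 against 2 libraries allow, and 0.667 adjusted over the 2 pairs, so this design cannot reach the threshold. The pair of *Dlx3* and *Dlx4* could not be compared.

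In shares of reads, *Dlx6* made up 9.09% of the *Dlx5* and *Dlx6* reads in control 1 (Wilson 95% interval 3.14 to 23.6) and 3.23% in control 2 (0.889 to 11.02). The mutants were at 18.9% (11.6 to 29.3) and 14.3% (7.70 to 24.97), and the interval of control 1 overlapped both. *Dlx2* made up 54.9%, 64.9%, 66.01% and 58.2% of the *Dlx1* and *Dlx2* reads, with no separation by group.

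**Figure D4:**
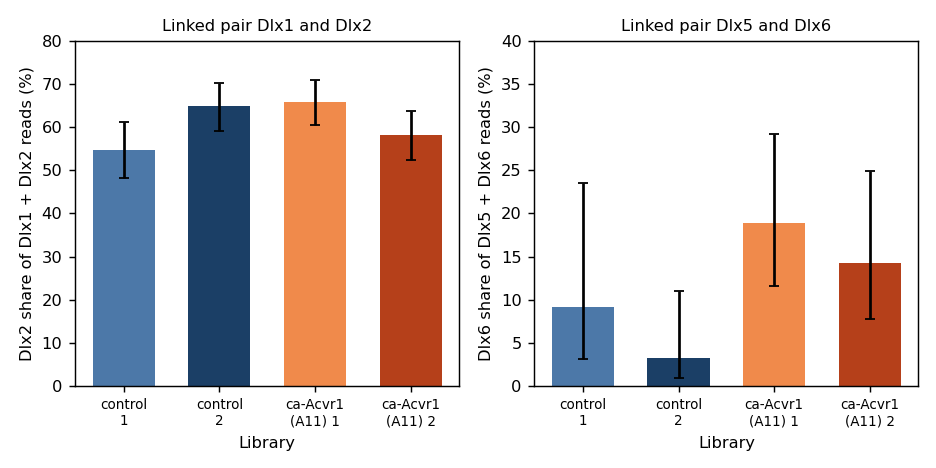
Share of reads within each linked pair taken by *Dlx2* (left) and by *Dlx6* (right) per library, as bars in percent with Wilson 95% intervals. Both axes start at 0 but end at different values. *Dlx2* stays between 54.9% and 66.01%, and *Dlx6* is at 3.23% to 9.09% in controls and 14.3% to 18.9% in mutants.

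Of all DLX reads (267, 355, 390 and 368 per library), *Dlx2* took 46.4%, 51.5%, 51.3% and 45.4% and *Dlx1* took 38.2%, 27.9%, 26.4% and 32.6%. Summed over the 5 listed genes, DLX signal was 136, 158, 162 and 172 CPM. Both mutants lay above both controls by a narrow margin, as did 21.9% of single tested genes by any margin. The groups overlapped for *Dlx1* and *Dlx2*, which carry most of this sum. Summed MSX signal was 43.9, 98.1, 42.8 and 56.6 CPM, with the second control high. The ratio of MSX to DLX signal was 0.322, 0.623, 0.264 and 0.329.

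NP tissue holds several cell types, and in bulk RNA fewer cells of a type cannot be told apart from less RNA per cell. Summed markers of cranial neural crest mesenchyme were 1695 and 1999 CPM in controls and 892 and 907 CPM in mutants, with 8 of 8 genes lower and 7 called. Leaving out *Pdgfra*, which held values that were not whole reads, the sums were 1609, 1885, 878 and 889 CPM. Epithelial markers summed to 276 and 261 against 420 and 383 CPM, with *Cdh1* and *Epcam* called higher among 11. Olfactory placode markers summed to 968 and 874 against 1253 and 1200 CPM, with 8 of 8 higher and 0 called by limma or edgeR (3 at an unadjusted p under 0.05 in each). Estimates of the MSX genes were below 0 and those of the 5 listed DLX genes above 0, from 0.03 for *Dlx1* and 0.16 for *Dlx2* to 1.45 for *Dlx6*. The signs of *Msx1* and *Dlx1* changed without control 2, and those of *Dlx2* and *Dlx5* without control 1. The part of cell make-up in these values was not tested.

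For the other marker lists limma called 0 of 7 forebrain progenitor genes (sums 829 to 929 CPM in controls, 1047 to 1149 in mutants), 0 of 6 neuronal genes (685 to 723 against 802 to 916), 0 of 5 endothelial genes (124 to 128 against 118 to 127), 0 of 5 listed erythroid genes (7007 to 8468 against 6694 to 7186) and 0 of 3 listed glial genes (20.4 to 22.6 against 8.42 to 11.6). At an unadjusted p under 0.05 these lists had 4, 3, 0, 0 and 2 genes, and edgeR called 0 in each. Of 6 macrophage genes *Cx3cr1* was called higher, with *C1qa* at 0 in a library and sums of 36.4 to 39.9 against 63.1 to 89.4 CPM. Of branchial arch markers, *Hand1*, *Hand2* and *Nkx3-2* had no row, and the other 3 summed to 16.4 and 33.7 CPM in controls and 18.7 and 15.9 CPM in mutants. Limma and edgeR each called 1 of these 3, *Barx1*, lower. At an unadjusted p under 0.05 there were 2, and 1 of the 3 estimates was above 0.

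The genes around MSX and DLX in the same pathways were described from lists of genes, by counts and medians. Of 13 genes of the BMP and SMAD response, limma called 0 in either direction. Estimates were below 0 for 8 and above 0 for 5, with a median of −0.48. At an unadjusted p under 0.05 there were 8, some lower and some higher, and edgeR called 1, *Id2*, lower. *Id2*, an inhibitor of helix-loop-helix factors and a direct BMP target, was at 406, 714, 323 and 407 CPM (log2 fold change −0.57, adjusted p = 0.187 in limma). Its estimate was −0.98 without control 1 and −0.16 without control 2. *Id4* was at 147, 182, 238 and 215 CPM (0.46, adjusted p = 0.192). *Id1* was at 106, 202, 92.6 and 115 CPM. The second control was the highest of the 4 libraries in 7 of the 13 genes of the list.

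Of 10 listed BMP ligands and receptors limma called 0, with 1 at an unadjusted p under 0.05 (*Bmpr1b*, −0.54) and a median of −0.03, and edgeR called 0. *Bmp4*, the ligand that lies upstream of *Msx1* in facial and dental mesenchyme, was at 41.9, 38.6, 47.3 and 51.9 CPM (0.29). In the endothelin and DLX branch that patterns the arches, limma called 2 of 6 tested genes lower. Estimates were below 0 for 4 of the 6, with 3 at an unadjusted p under 0.05. *Gsc*, a homeobox gene downstream of endothelin signaling and *Dlx5* and *Dlx6* in the lower jaw, was at 7.15 and 8.43 CPM in controls and 0.415 and 1.40 CPM in mutants (−2.25, adjusted p = 0.00810 in limma). These values came from 14, 19, 1 and 3 reads. *Barx1*, a homeobox gene of molar and stomach mesenchyme, is also among the branchial arch markers above. It was at 3.58, 10.2, 1.25 and 0.468 CPM, from 7, 23, 3 and 1 reads, and fell by 1.98 on the log2 scale (adjusted p = 0.0478 in limma). DESeq2 called neither *Gsc* nor *Barx1*. *Gsc* also missed the threshold without control 2 (adjusted p = 0.0547 in limma) or mutant 1 (0.0518), and *Barx1* without control 2 (0.640) or mutant 2 (0.176) and with a pseudocount of 0.1 (0.0985).

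Among 25 other homeobox and paired-box genes of the face, limma called 7 lower and 1 higher, with 15 estimates below 0 and 10 above. *Prrx1*, a regulator of facial mesenchyme, was at 224, 241, 94.7 and 108 CPM and fell by 1.19 on the log2 scale (adjusted p = 1.5e-05 in limma). *Prrx2*, *Pax3*, *Alx1* and *Alx4*, which mark midfacial mesenchyme and neural crest, fell by 1.42, 1.14, 1.13 and 0.94 on the log2 scale. *Six2* also fell, and *Pitx1* rose by 1.04 (adjusted p = 0.0171). The calls were lost for *Six2* without control 2 (adjusted p = 0.0714) and for *Pitx1* without mutant 1 (0.189) or with DESeq2 (0.451). The median of the list was −0.08, and *Prrx1*, *Prrx2* and *Alx1* are also among the mesenchymal markers above.

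Of 10 forebrain and olfactory genes placed downstream of DLX factors, 9 had estimates above 0 and limma called 1, *Sp8*, higher. *Sp8*, a zinc finger gene of the olfactory bulb and nasal pit, was at 31.2, 26.2, 55.2 and 52.9 CPM (0.90, adjusted p = 0.0195 in limma). That call was lost without control 2 (0.0727), mutant 1 (0.131) or mutant 2 (0.0762) and with DESeq2 (0.450). *Gad2*, which makes GABA, was at 21.0, 19.98, 33.2 and 29.5 CPM (0.59, adjusted p = 0.354). Limma called 0 of 8 listed bone and cartilage genes (3 at an unadjusted p under 0.05, 2 in edgeR, which called 0), with a median of −0.31. *Sox9*, the cartilage regulator, was at 673, 622, 526 and 530 CPM in that list and *Col2a1*, a cartilage collagen, at 134, 120, 106 and 94.99 CPM. Of 10 listed partners and antisense genes limma and edgeR called 0, with 3 at an unadjusted p under 0.05 in each and a median of −0.03, and *Maged1*, a partner of DLX and MSX proteins, was at 348, 404, 306 and 283 CPM.

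**Figure D5:**
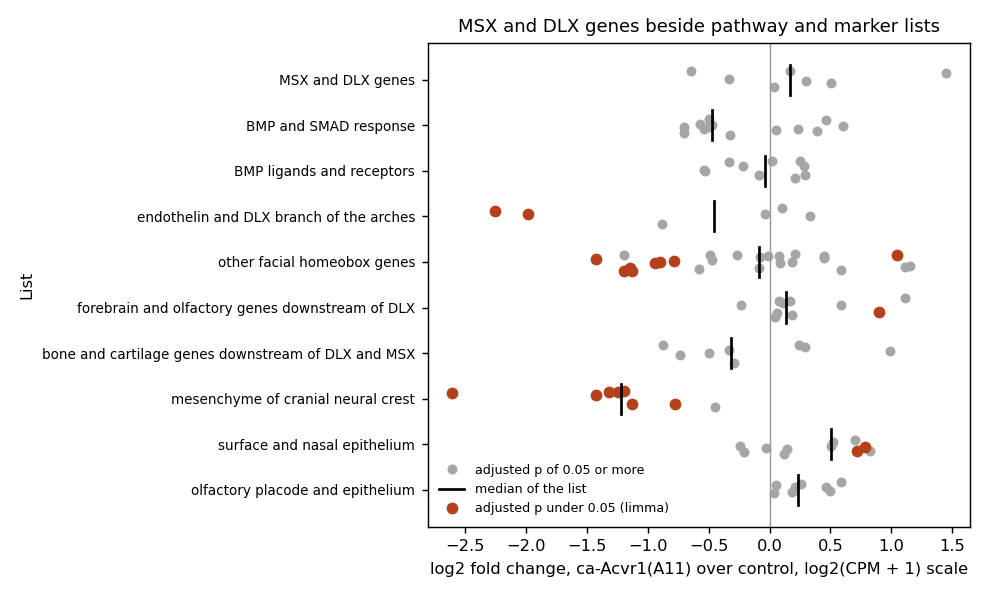
Log2 fold change of every tested gene among the members and in pathway and marker lists, mutant minus control on the log2(CPM + 1) scale, with red points for genes with an adjusted p under 0.05 and a line for each median. The members' median is 0.16 with 0 called, and the list of other facial homeobox genes holds 7 called lower and 1 called higher.

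Genes close to the members in the genome were also examined. Within 500000 bases of a member in GENCODE M21, 38 genes were tested, *Msx1os* not among them because it was placed from RefSeq, with 8 at an unadjusted p under 0.05 and a median log2 fold change of 0.06. Limma called 1, *Col1a1*, a fibrillar collagen gene 167077 bases from *Dlx3*, lower (−1.17, adjusted p = 0.0171). This call was lost without control 2 (adjusted p = 0.0819) and without mutant 1 (0.183), and with DESeq2 (0.316). To compare patterns rather than levels, each gene's mean was subtracted from its 4 log2(CPM + 1) values. The 5 genes whose centred pattern lay nearest to that of *Dlx6*, among 8354 genes with a mean of at least 10 CPM, were *Pappa*, *Phlda3*, *Lcp1*, *Grb7* and *Lrp2*, at Euclidean distances of 0.226 to 0.457 on the log2 scale. *Pappa* was at 23.0, 17.8, 54.0 and 48.2 CPM, higher in both mutants, which follows from its choice by pattern. The added 1 CPM narrows the pattern of *Dlx6*, from 2 to 14 reads, more than that of *Pappa*. A like pattern on this scale therefore need not mean a like fold change.

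The promoters of *Msx1*, *Msx2*, *Dlx1* and *Dlx2* had RefSeq windows (GRCm38.p6, 250 bases before the start), 4 of 8 members. RefSeq and GENCODE place some starts differently: the windows of *Msx2* and *Dlx1*, which end at the RefSeq start, lie inside the GENCODE gene bounds given above. The windows of *Msx1* (chr5:37824586-37824835, minus strand) and *Dlx2* (chr2:71546755-71547004, minus strand) are shown as the MSX and DLX genes with the highest levels, and for *Msx2* the 30 bases around its match (chr13:53472950-53472979, minus strand). Capitals mark a match.
*Msx1*: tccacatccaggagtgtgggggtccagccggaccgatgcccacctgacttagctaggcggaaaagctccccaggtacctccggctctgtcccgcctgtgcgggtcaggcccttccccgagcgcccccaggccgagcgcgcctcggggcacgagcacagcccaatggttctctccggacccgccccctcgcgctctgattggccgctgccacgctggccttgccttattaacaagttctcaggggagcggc
*Dlx2*: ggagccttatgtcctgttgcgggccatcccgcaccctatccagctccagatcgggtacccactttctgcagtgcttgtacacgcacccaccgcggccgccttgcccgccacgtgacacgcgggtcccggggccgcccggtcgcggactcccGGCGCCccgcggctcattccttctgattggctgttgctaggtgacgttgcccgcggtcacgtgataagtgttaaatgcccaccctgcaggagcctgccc
*Msx2*: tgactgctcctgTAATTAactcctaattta

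Exact matches of 3 motifs were searched on both strands. The core of homeodomain sites was searched as TAATTA, the GC-rich element bound by BMP SMADs as GGCGCC, which is the same on either strand, and the SMAD box as CAGAC or its reverse complement. *Msx2* held the homeodomain core, 187 bases before the RefSeq start, a motif in 4.84% of 32851 promoter windows of the same length. *Dlx2* held the GC-rich element, 99 bases before the start, found in 9.59% of windows. None of the 4 windows held the SMAD box, found in 42.2%, and *Msx1* and *Dlx1* held none of the 3. GC content was 68% for *Msx1*, 61.6% for *Msx2*, 68% for *Dlx1* and 66.4% for *Dlx2*, against a median of 52.4% over all windows.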

How the data were processed

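NP tissues of E11.5 embryos were profiled by QuantSeq in 4 libraries, 2 per group. The authors deposited gene-level CPM, and the submitters' processing notes name STAR, featureCounts 1.6.4, DESeq2 and the build mm10. The members and lists were chosen with earlier results of these data known. Values were taken as log2(CPM + 1), genes with a mean above 1 CPM were kept (12462 of 13577), and groups by title were compared with limma 3.58.1 (trend, moderated, two-sided, Benjamini-Hochberg over all genes tested, threshold 0.05). The residual spread came from these 4 libraries. Whole reads were recovered from the deposited CPM for 99.9208% of 54308 values (tolerance 0.02 reads), with 43 values in 22 genes not whole, none in a member. These reads were tested with edgeR 4.0.16 (quasi-likelihood) and DESeq2 1.42.0 as alternatives. The fit was tested on simulated data. Named genes were the 8 members, *Acvr1*, for each list the called genes (at most 5, by p) or at least the 2 with the smallest p, called neighbours and the 5 genes most like the member with the smallest p. *Id1*, *Six2*, *Pitx1*, *Pdgfra*, *C1qa*, *Dlx1as*, *Dlx6os1* and the called marker genes were added after their values were seen. Pair ratios were compared with an exact permutation test. Positions come from GENCODE M21 and RefSeq on GRCm38. Alternatives were the pseudocount, filter, scaling, count tests, replicate block and leaving out each library. No protein sequences were used here, and some items are not reported here.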

Additional observations from a re-analysis of the deposited data

How the results depend on the processing

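The count of members called was 0 under a pseudocount of 0.1, no filter, TMM and RLE scaling, edgeR, DESeq2 and the replicate block, and ranged from 0 to 2 when 1 library was left out, the 2 being *Msx1* and *Msx2* without control 1. The called genes of the 7 pathway lists numbered 11, fell to 6 with DESeq2 and ranged from 8 to 19 with 1 library left out. Called neighbours numbered 1, 0 with DESeq2 and 0 to 4 with 1 library left out, the 4 again without control 1. Over all genes 112 were called, 140 with edgeR, 32 with DESeq2 and 462 without control 1. Leaving out the 22 genes with values that were not whole reads, an alternative chosen after seeing the data, gave 100 calls, 0 of them members, and *Barx1* missed the threshold (adjusted p = 0.0509 in limma). The cause of these shifts was not tested. A fit with 1 library left out keeps 1 library in that group, so its p-values and calls hold no spread within that group.

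With 1 library left out, signs changed for *Msx1* (−0.93 to 0.28), *Dlx1* (−0.16 to 0.23), *Dlx2* (−0.012 to 0.34), *Dlx5* (−0.083 to 0.68), *Acvr1* (−0.77 to 0.11) and *Dlx1as* (−0.13 to 0.33), and for the ratio of *Dlx1* to *Dlx2* (−0.43 to 0.17). *Dlx6* ranged from 1.23 to 1.66 with adjusted p from 0.0709 to 0.665, and from 0.0926 to 1.00 under the other alternatives. The ratio of *Dlx5* to *Dlx6* ranged from −1.74 to −0.56, and was −1.68 with a pseudocount of 0.1.

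Libraries with the same number shared no stated batch, and their deviations correlated at 0.0671. With the replicate block limma called 0 members, 14 list genes and 229 genes in all, and *Id2* passed (adjusted p = 0.00897). With 2 libraries per group and 2 to 14 reads of *Dlx6*, depth limits what can be said of the lowest members.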
